A study of Mus musculus with 14 samples.

Results

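Satellite glia are the glial cells that wrap the cell bodies of sensory neurons in the dorsal root ganglion. Here 9 genes of these cells, chosen by symbol with earlier results of these data known, were followed through 4 groups of mouse ganglia. They were Gja1, Slc1a3, Glul, Ptprz1, Ednrb, Cdh19, Fabp7, Apoe and Atp1b2. Because of that choice, p-values and counts of called genes among them are descriptive. All 9 were found among the 56691 genes of the count table that holds 5xFAD and wild-type ganglia, and among the 20833 genes of the table that holds p75 knockout and p75 floxed ganglia. In both tables all 9 passed the filter on low counts, which left 15845 and 11890 genes to test.

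The groups were 4 libraries of 5xFAD mutant ganglia set against 4 wild-type (WT) libraries, and 3 libraries of P75f/f knockout ganglia set against 3 libraries with floxed p75 alleles alone (P75f/f). 5xFAD mice model Alzheimer disease through mutant human transgenes that a Thy1 promoter drives in neurons, and p75 is the p75 neurotrophin receptor, encoded by Ngfr. The driver that removed the floxed p75 alleles and the ages of the mice are not given in the labels. They also do not tie each replicate to its own animal, so a p-value here covers the spread among libraries, which may be technical. The study's design text describes the p75 comparison as a search for secreted factors with lower expression where the receptor is absent.

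Satellite glia are joined to one another by gap junctions, and they clear potassium and glutamate from the narrow space around the neuron. Gja1 encodes connexin 43, the main connexin of astrocytes and a gap junction protein of satellite glia. Slc1a3 encodes the glutamate transporter GLAST, Glul encodes glutamine synthetase, and Atp1b2 encodes a beta subunit of the sodium and potassium pump that also serves as an adhesion molecule of glia. Ptprz1 is a receptor tyrosine phosphatase of glia and glial precursors, Ednrb is the type B endothelin receptor, Cdh19 is a cadherin of the neural crest glial lineage, Fabp7 is a fatty acid binding protein of immature and satellite glia, and Apoe is the main lipid carrier that glia secrete. Several of the 9 are also made by other cells of the ganglion: Apoe by macrophages and Schwann cells, and Gja1 by vessel and connective tissue cells.

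The sequence just upstream of the transcription start is shown for 3 of these genes, because Gja1 was the member with the clearest decrease in 5xFAD ganglia and Ptprz1 and Apoe were higher there at every replicate number. Each line gives 250 bases that end at the base before the RefSeq start (build GRCm38.p6), read 5′ to 3′ on the gene's own strand. The bases just after that start were looked for in the transcripts of another annotation, GENCODE vM21. They were found in 0 of 8 transcripts of Gja1, 1 of 6 of Ptprz1 and 1 of 11 of Apoe. Gja1 is at chr10:56377050-56377299 on the plus strand, Ptprz1 at chr6:22875252-22875501 on the plus strand, and Apoe, for the most upstream of its RefSeq starts, at chr7:19699189-19699438 on the minus strand.
Gja1: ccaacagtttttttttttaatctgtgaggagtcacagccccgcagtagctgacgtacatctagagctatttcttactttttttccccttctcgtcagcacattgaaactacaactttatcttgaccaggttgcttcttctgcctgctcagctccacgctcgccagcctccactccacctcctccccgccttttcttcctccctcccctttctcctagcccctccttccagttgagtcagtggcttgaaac
Ptprz1: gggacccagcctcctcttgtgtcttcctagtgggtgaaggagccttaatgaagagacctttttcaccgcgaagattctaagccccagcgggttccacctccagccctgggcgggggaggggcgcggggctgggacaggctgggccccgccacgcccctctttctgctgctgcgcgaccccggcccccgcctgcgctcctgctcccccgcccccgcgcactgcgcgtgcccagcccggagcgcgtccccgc
Apoe: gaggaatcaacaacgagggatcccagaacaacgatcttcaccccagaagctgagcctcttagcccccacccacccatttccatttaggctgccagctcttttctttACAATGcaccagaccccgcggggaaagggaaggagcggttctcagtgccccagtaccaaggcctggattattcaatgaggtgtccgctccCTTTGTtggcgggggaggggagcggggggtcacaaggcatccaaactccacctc
Capitals mark the SOX core motifs ACAAAG and ACAATG, which were searched on both strands and do not overlap each other. SOX10 and its relatives are transcription factors of peripheral glia. Of the 9 upstream windows that RefSeq gave for 7 of the genes, 1 held such a core, the Apoe window printed here, with ACAATG on the gene's strand and ACAAAG on the other. Either core occurred in 25.2% of the 32851 mouse windows of the same length. No window was given for Cdh19 and Atp1b2.

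Total counts ranged between 13907070 and 19837836 in the 5xFAD table and between 4731119 and 6052690 in the p75 table. Levels are given as counts per 1000000 of a library's total (CPM). Ngfr had 22.5 to 35.9 CPM in p75 knockout libraries, against 87.7 to 135 CPM in p75 floxed libraries, so the receptor's mRNA was lower but not at 0 in the knockout. The samples are labelled as sensory neurons. All 13 neuronal markers were detected in every library of the 5xFAD table, but so were all 12 markers of myelinating Schwann cells and all 6 of fibroblasts, so RNA of these other cell types was present too. In such bulk samples fewer cells of a type and less RNA per cell cannot be told apart. Libraries of replicates 1 and 2 stood apart from those of replicates 3 and 4 in both genotypes of the 5xFAD table, and replicate 3 stood apart from replicates 1 and 2 in both groups of the p75 table. Among 5xFAD libraries 25.4% of genes differed beyond counting noise between replicates 1 and 2, but 48.0% to 49.8% between either of these and replicates 3 or 4. The split was narrower among wild-type libraries. There 35% differed between replicates 1 and 2 and 34.2% between replicates 3 and 4, against 40.4% to 56.2% across the pairs. The labels name no batch, and results that rest on these differences are given with and without them.

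The 9 genes covered a wide range of levels. They were divided by the joined length of all annotated exons of a gene, over all its transcripts. This length can exceed that of the mRNA present, so the order of genes on this scale is only approximate. Per kilobase of exon, Cdh19 averaged 198 ± 6.07 CPM in 5xFAD and 173 ± 25.2 CPM in wild-type ganglia. Apoe averaged 219 ± 62.9 CPM in 5xFAD and 137 ± 45.5 CPM in wild-type ganglia (SD, n = 4 each). Both were far above the rest, and they exchanged places between the genotypes within their spread. Glul followed with 34.5 ± 1.88 CPM per kilobase in 5xFAD and 36.8 ± 2.52 CPM in wild-type ganglia, and Ednrb with 17.5 ± 1.44 CPM in 5xFAD and 19.2 ± 1.59 CPM in wild-type ganglia. Atp1b2, at 18.6 ± 6.76 CPM per kilobase in 5xFAD and 9.30 ± 5.30 CPM in wild-type ganglia, overlapped Ednrb within its spread in 5xFAD libraries. Gja1 averaged 4.35 ± 0.383 CPM per kilobase in 5xFAD and 6.59 ± 0.994 CPM in wild-type ganglia. Fabp7 averaged 6.13 ± 0.916 CPM in 5xFAD and 5.39 ± 1.08 CPM in wild-type ganglia. The joined exons spanned 10257 bases for Gja1 and 1250 for Fabp7, so these values cannot tell which of the pair was higher. Ptprz1, at 2.64 ± 0.318 CPM per kilobase in 5xFAD and 1.62 ± 0.462 CPM in wild-type ganglia, and Slc1a3, at 0.498 ± 0.239 CPM in 5xFAD and 0.732 ± 0.0950 CPM in wild-type ganglia, were the lowest on this scale. Their joined exons were also long, at 14245 bases for Ptprz1 and 8537 for Slc1a3.

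The 5xFAD ganglia had less Gja1 and, in fits that allow for the replicate number, more Ptprz1, Atp1b2 and Apoe than wild-type ganglia. The 9 genes did not move as a group: 5 had fold changes above 0 and 4 below. Without a term for the replicate, 1 of the 9 was called at an adjusted p of 0.05, Gja1, which was lower, against 3.6% of all genes tested called in either direction and 1.04% called lower (edgeR's quasi-likelihood test with Benjamini-Hochberg adjustment over all genes). With the replicate number as a block 4 of the 9 were called, against 10.2% of all genes: 3 were higher, against 6.63% of all genes, and 1 was lower, against 3.6%. DESeq2 called 2 of the 9, against 6.49% of all genes. Within replicates 1 and 2 alone 6 of the 9 were called, against 12.8% of all genes, and within replicates 3 and 4 alone 3 of the 9, against 4.8%. The libraries of the 2 genotypes did not overlap for 2 of the 9 genes, against 11% of all genes. The median log2 fold change of the 9 was 0.19, beside 0.002 over all genes.

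**Figure D1:**
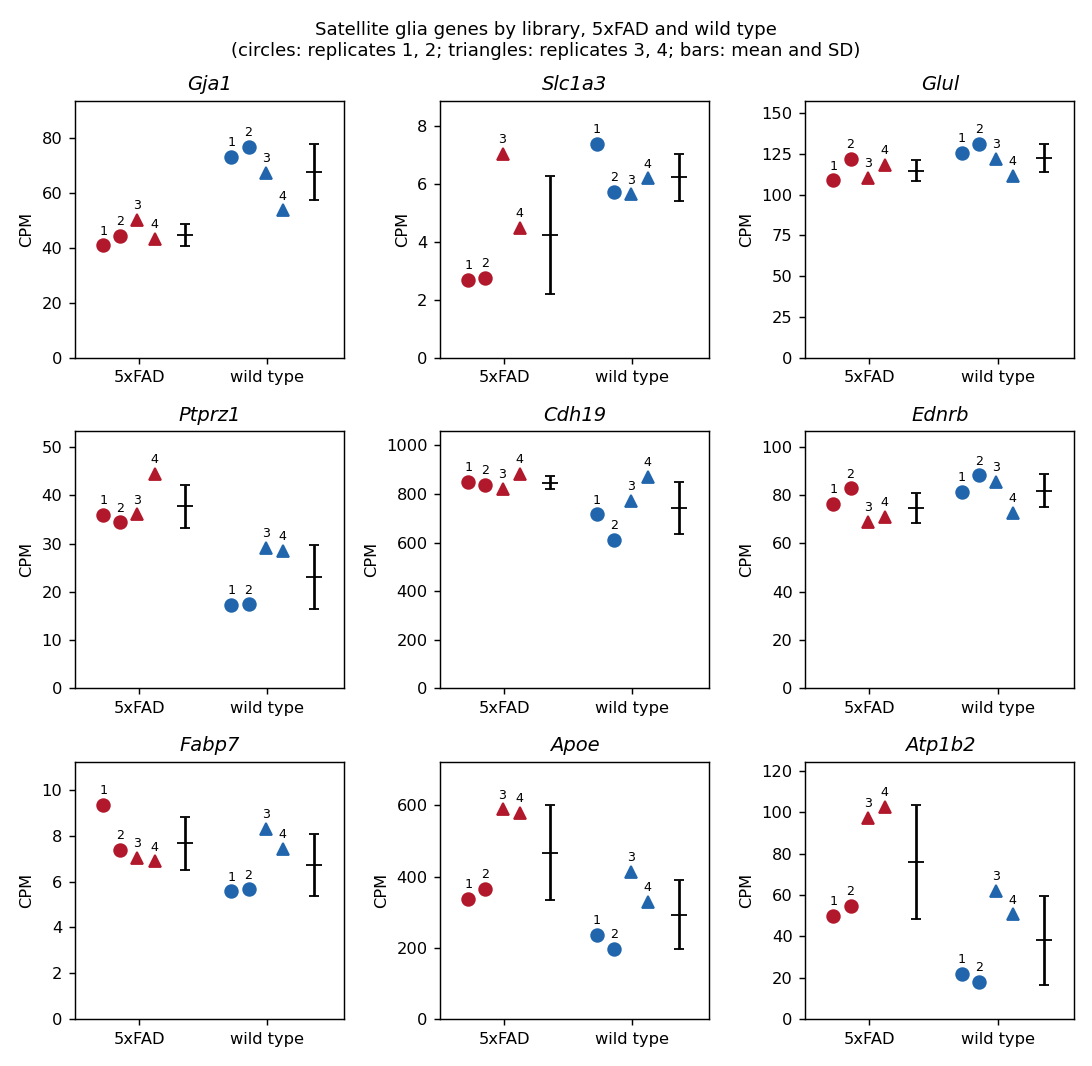
Levels of the 9 satellite glia genes in CPM (linear axes from 0) in 4 5xFAD libraries (red, left) and 4 wild-type libraries (blue, right), numbered by replicate; bars give the mean and SD. Gja1 lies at 40.8 to 50.05 CPM in 5xFAD and at 53.5 to 76.7 CPM in wild-type libraries, and in the Atp1b2 and Apoe panels the triangles (replicates 3 and 4) lie above the circles (replicates 1 and 2) within each genotype.

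Gja1 had 40.8, 44.4, 50.05 and 43.1 CPM in 5xFAD replicates 1 to 4, against 73.1, 76.7, 67.1 and 53.5 CPM in wild-type replicates 1 to 4. Every 5xFAD library was below every wild-type library, and the closest pair were 5xFAD replicate 3 and wild-type replicate 4. The means were 44.6 ± 3.92 CPM in 5xFAD and 67.6 ± 10.2 CPM in wild-type ganglia (SD, n = 4 each), so 5xFAD ganglia held 66.0% of the wild-type level. On the log2 scale the fold change was -0.59 (SE 0.11, 95% interval -0.83 to -0.35, edgeR adjusted p = 0.0155). An exact two-sided permutation test of the mean log2(CPM + 1) in 4 against 4 libraries gave a difference of -0.58 with p = 0.0286, the smallest that this design allows. The adjusted p rose to 0.0548 without 5xFAD replicate 1, 0.0585 without 5xFAD replicate 4 and 0.0659 without wild-type replicate 1, while the log2 fold change stayed between -0.69 and -0.53 whichever library was left out. Within replicates 1 and 2 the log2 fold change was -0.81 (edgeR adjusted p = 4.87e-06), and within replicates 3 and 4 it was -0.37 (edgeR adjusted p = 0.174).

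The other genes of the gap junction family differed in direction. Of 8 tested genes of the gap junction family, Gja1 was called lower and none was called higher, and 3 of the 8 had fold changes above 0. The median log2 fold change of the 8, Gja1 included, was -0.36, beside 0.002 over all genes. Gja5 (-0.69), Gjb1 (-0.90) and Gjb2 (-1.14) were scarce, with means of 1.50, 2.38 and 1.46 CPM over both genotypes. The more abundant Gjc1, at 39.9 CPM, had -0.13 (SE 0.08). With the replicate block Gjc3, a connexin of Schwann cells and satellite glia, was called higher (log2 fold change 0.24, SE 0.06, edgeR adjusted p = 0.0314), and Gjb1, the connexin of myelinating Schwann cells, was called lower (-0.90, SE 0.26, edgeR adjusted p = 0.0461). Gjc3 averaged 63.3 ± 10.3 CPM in 5xFAD and 53.7 ± 7.53 CPM in wild-type ganglia, and Gjb1 only 1.62 ± 0.903 CPM in 5xFAD and 3.15 ± 1.99 CPM in wild-type ganglia (SD, n = 4 each). Panx1, a pannexin and the most abundant member of the list, had a log2 fold change of 0.12 (SE 0.10). All 6 endothelial markers, genes of a cell type that can also make Gja1, had fold changes below 0, none was called (1 at an unadjusted p under 0.05, 0 by DESeq2 or limma-voom), and 4 were called lower with the block; their summed level was 429 to 718 CPM in 5xFAD and 686 to 953 CPM in wild-type libraries, with none at 0. Of the other vessel and connective tissue cells, fibroblasts had 3 of 6 tested markers above 0 (median log2 fold change 0.019). Mural cells of vessels also had 3 of 6 above 0 (median 4.8e-05). No marker of either list was called by edgeR without the block, while DESeq2 called 1 mural cell marker. With the block 1 fibroblast marker was called higher, Col3a1. The part of these cell types in the Gja1 result was not tested.

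Neither of the glutamate genes was called in the fit of all libraries. Slc1a3 had 2.70, 2.77, 7.05 and 4.49 CPM in 5xFAD replicates 1 to 4, against 7.41, 5.73, 5.65 and 6.20 CPM in wild-type replicates 1 to 4. 5xFAD replicates 1 and 2 lay below all wild-type libraries, but 5xFAD replicate 3 was higher than 3 of the 4 wild-type libraries. Its log2 fold change was -0.56 (SE 0.29, 95% interval -1.21 to 0.09, edgeR adjusted p = 0.392). Within replicates 1 and 2 it was -1.27 (edgeR adjusted p = 0.00311), and within replicates 3 and 4 it was -0.05 (edgeR adjusted p = 0.96). The gene was scarce, with 50 to 125 counts a library.

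Glul had 109, 122, 110 and 118 CPM in 5xFAD libraries, against 125, 131, 122 and 111 CPM in wild-type libraries. The ranges overlapped, and the log2 fold change of -0.08 (95% interval -0.22 to 0.05) was the smallest in size among the 9, with an edgeR adjusted p of 0.566. Of 15 tested genes of potassium and glutamate clearance, Slc1a3 and Glul included, 5 had fold changes above 0, and 1 was called, lower: Slc6a9, the glial glycine transporter, at 49.8 ± 2.19 CPM in 5xFAD and 63.9 ± 6.81 CPM in wild-type ganglia (SD, n = 4 each; log2 fold change -0.35, SE 0.08, edgeR adjusted p = 0.0368). Kcnj10, the Kir4.1 potassium channel of satellite glia, had 7.79, 8.68, 21.5 and 19.2 CPM in 5xFAD replicates 1 to 4 and 5.04, 4.29, 23.4 and 11.0 CPM in wild-type replicates 1 to 4, with a log2 fold change of 0.37 (SE 0.63, edgeR adjusted p = 0.825). It differed more between the replicate pairs than between the genotypes.

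Atp1b2 had 49.9, 54.7, 97.3 and 102 CPM in 5xFAD replicates 1 to 4, against 21.7, 17.8, 61.9 and 50.6 CPM in wild-type replicates 1 to 4. Replicates 3 and 4 were higher than 1 and 2 in each genotype, and at each number the 5xFAD library was the higher one. Without the block the log2 fold change was 0.996 (SE 0.478, edgeR adjusted p = 0.37), and it was 1.10 (SE 0.17, edgeR adjusted p = 0.0238) with the block. Within replicates 1 and 2 it was 1.40 (edgeR adjusted p = 2.48e-07), and within replicates 3 and 4 it was 0.83 (edgeR adjusted p = 0.00043).

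Among 12 tested subunits and regulators of the sodium pump, 9 had fold changes above 0 (median 0.53, beside 0.002 over all genes), and 1 was called higher and none lower. With the block 5 of the 12 were called higher and 1 lower. Among the 5 were Atp1b2 itself and Fxyd1, which encodes a regulator of the pump and averaged 161 ± 36.8 CPM in 5xFAD and 82.5 ± 32.8 CPM in wild-type ganglia (SD, n = 4 each). All 5xFAD libraries lay above all wild-type libraries for Fxyd1, with a log2 fold change of 0.97 (SE 0.32, edgeR adjusted p = 0.196) without the block and 1.03 (SE 0.16, edgeR adjusted p = 0.035) with it.

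Ptprz1 was the other gene whose libraries did not overlap. It had 35.96, 34.4, 36.02 and 44.4 CPM in 5xFAD replicates 1 to 4, against 17.4, 17.4, 29.1 and 28.5 CPM in wild-type replicates 1 to 4. All 4 5xFAD libraries were higher than all 4 wild-type libraries, and the wild-type libraries fell into a low and a high pair. The means were 37.7 ± 4.52 CPM in 5xFAD and 23.1 ± 6.59 CPM in wild-type ganglia (SD, n = 4 each). Its log2 fold change was 0.71 (SE 0.20, 95% interval 0.26 to 1.151, edgeR adjusted p = 0.104) and did not pass. With the block it was 0.74 (SE 0.12, edgeR adjusted p = 0.00536), and DESeq2 without a block gave an adjusted p of 0.00929. Replicates 1 and 2 alone gave 1.02 (edgeR adjusted p = 7.74e-06), and replicates 3 and 4 alone gave 0.49 (edgeR adjusted p = 0.0241).

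In the list of Ptprz1, its ligands and related phosphatases, 11 of 12 tested genes, Ptprz1 itself included, had fold changes above 0 (median 0.32). In the fit without the block 2 of the 12 were called, both higher, and with it 4 were, all higher: Ptprz1, Cntn1, which encodes the cell adhesion protein contactin 1, Tnr and Bcan. Tnr, which encodes the matrix protein tenascin-R, averaged 4.92 ± 0.751 CPM in 5xFAD and 1.46 ± 0.545 CPM in wild-type ganglia (log2 fold change 1.77, SE 0.27, edgeR adjusted p = 0.00631). Bcan, which encodes the proteoglycan brevican, averaged 17.0 ± 7.71 CPM in 5xFAD and 6.38 ± 0.943 CPM in wild-type ganglia (SD, n = 4 each). Its log2 fold change was 1.43 (SE 0.30, edgeR adjusted p = 0.038). Bcan had 22.5, 24.7, 10.3 and 10.5 CPM in 5xFAD replicates 1 to 4, against 7.17, 7.16, 5.26 and 5.95 CPM in wild-type replicates 1 to 4. Ptn, which encodes the Ptprz1 ligand pleiotrophin, had a log2 fold change of 0.03 (SE 0.09, edgeR adjusted p = 0.925).

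Ednrb had 76.3, 82.8, 69.0 and 71.0 CPM in 5xFAD libraries, against 81.2, 88.2, 85.5 and 72.6 CPM in wild-type libraries. The 5xFAD library was lower at each replicate number, but the ranges overlapped, and the log2 fold change was -0.12 (SE 0.07, 95% interval -0.29 to 0.04, edgeR adjusted p = 0.475). None of the 7 tested genes of the endothelin system, Ednrb included, was called by edgeR's quasi-likelihood test; 2 had an unadjusted p under 0.05, and DESeq2 and limma-voom each called 1. Ece1, which encodes the endothelin-converting enzyme and is the most abundant of the list, had a log2 fold change of 0.12 (SE 0.06, edgeR adjusted p = 0.348). With the block 2 of the 7 were called higher, the metallopeptidase genes Ecel1 and Mme.

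Cdh19 had 849, 838, 820 and 881 CPM in 5xFAD libraries, against 716, 611, 773 and 870 CPM in wild-type libraries. The 5xFAD libraries lay close together, and only wild-type replicate 4 reached into their range. The fold change was 0.20 on the log2 scale (SE 0.10, 95% interval -0.03 to 0.42, edgeR adjusted p = 0.387); replicates 1 and 2 alone gave 0.34 (edgeR adjusted p = 0.0066) and replicates 3 and 4 alone gave 0.05 (edgeR adjusted p = 0.808).

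Of 13 tested cadherins and catenins, Cdh19 included, 2 were called higher and 1 lower without the block, and 4 higher and 1 lower with it. Cdh1, which encodes E-cadherin, averaged 11.9 ± 0.456 CPM in 5xFAD and 4.54 ± 1.07 CPM in wild-type ganglia (log2 fold change 1.38, SE 0.17, edgeR adjusted p = 0.00233). Ctnna2, which encodes the alpha-catenin of neurons, averaged 27.1 ± 1.47 CPM in 5xFAD and 13.2 ± 2.29 CPM in wild-type ganglia (log2 fold change 1.05, SE 0.12, edgeR adjusted p = 0.00169). Cdh13, which encodes the membrane-anchored T-cadherin, averaged 29.4 ± 6.06 CPM in 5xFAD and 51.7 ± 9.72 CPM in wild-type ganglia (SD, n = 4 each; log2 fold change -0.80, SE 0.16, edgeR adjusted p = 0.0274).

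Apoe had 337, 366, 589 and 578 CPM in 5xFAD replicates 1 to 4, against 235, 196, 413 and 328 CPM in wild-type replicates 1 to 4. The ranges overlapped across replicate pairs, and at each number the 5xFAD library was higher. Its log2 fold change was 0.68 (SE 0.30, edgeR adjusted p = 0.331) without the block and 0.70 (SE 0.07, edgeR adjusted p = 0.000364) with it. The fold change was nearly equal in both pairs of replicates, 0.70 within replicates 1 and 2 (edgeR adjusted p = 0.000116) and 0.66 within replicates 3 and 4 (edgeR adjusted p = 0.015). Macrophages are another source of Apoe. None of their 9 tested markers had a fold change above 0 or was called (1 at an unadjusted p under 0.05, 0 by DESeq2 or limma-voom), and their summed level was 37.4 to 145 CPM in 5xFAD and 98.3 to 160 CPM in wild-type libraries, with none at 0 and higher sums in replicates 3 and 4 of each genotype. Their part in the Apoe result was not tested. Of 29 tested genes of lipoproteins and cholesterol supply, Apoe included, none was called without the block (5 at an unadjusted p under 0.05, 1 by DESeq2, 0 by limma-voom) and 18 had fold changes above 0. With it 4 were called higher, among them Scd2, a fatty acid desaturase gene and the most abundant of the list (log2 fold change 0.22, SE 0.06, edgeR adjusted p = 0.0334).

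Fabp7 was scarce, with 9.35, 7.37, 7.05 and 6.88 CPM in 5xFAD libraries against 5.57, 5.65, 8.31 and 7.41 CPM in wild-type libraries. The ranges overlapped, and the log2 fold change was 0.19 (SE 0.18, 95% interval -0.20 to 0.58, edgeR adjusted p = 0.662). Replicates 1 and 2 alone gave 0.57 (edgeR adjusted p = 0.0881) and replicates 3 and 4 alone gave -0.17 (edgeR adjusted p = 0.754). Of 8 tested fatty acid and retinoid binding proteins, Fabp7 included, 5 had fold changes above 0, and 1 was called, lower: Crabp2, a retinoic acid binding protein, at 5.89 ± 1.37 CPM in 5xFAD and 11.4 ± 2.56 CPM in wild-type ganglia (SD, n = 4 each; log2 fold change -0.95, SE 0.21, edgeR adjusted p = 0.0341). With the block 3 were called higher, Fabp5, Pmp2 and Crabp1, which encode proteins of the same family, and 1 lower, again Crabp2.

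**Figure D2:**
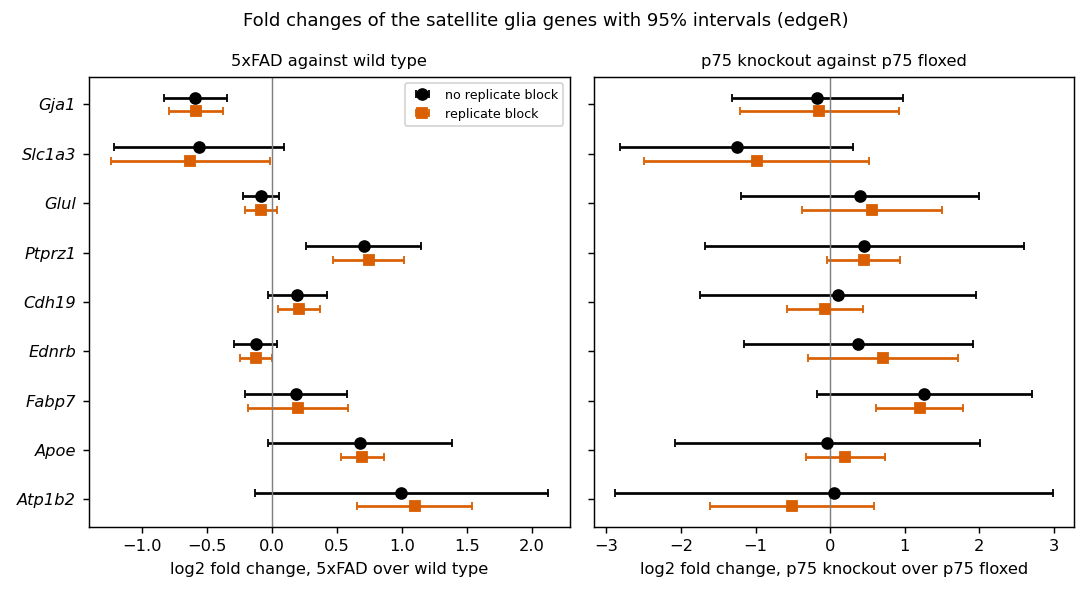
Log2 fold changes of the 9 genes, 5xFAD over wild type (left) and p75 knockout over p75 floxed (right), with 95% intervals, from edgeR without a replicate block (black circles) and with one (orange squares). In the 5xFAD panel the intervals of Atp1b2 and Apoe cross 0 without the block and lie above 0 with it, and in the p75 panel the block narrows most intervals.

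Other cell types of the ganglion moved in the same libraries. Of 13 neuronal markers, 10 were called higher in 5xFAD ganglia and all 13 had fold changes above 0; their summed level was 1185 to 1318 CPM in 5xFAD and 613 to 810 CPM in wild-type libraries. All 12 markers of myelinating Schwann cells had fold changes above 0, none called without the block (6 at an unadjusted p under 0.05, 2 by DESeq2, 0 by limma-voom) and 6 called higher with it. Their summed level was 2694, 2677, 3701 and 4060 CPM in 5xFAD replicates 1 to 4, against 1538, 1199, 2652 and 2684 CPM in wild-type replicates 1 to 4. These sums were higher in replicates 3 and 4 of each genotype and higher in 5xFAD at each number, as were the levels of Atp1b2 and Apoe. The part of Schwann cell and neuronal RNA in the results for Ptprz1, Atp1b2 and Apoe was not tested. Of 32 further tested genes known from satellite glia, 27 had fold changes above 0 (median 0.17) and 1 was called, Bcan, which is also in the list of Ptprz1 ligands; with the block 10 were called higher, among them Sox10, and 1 lower, S100a4.

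**Figure D3:**
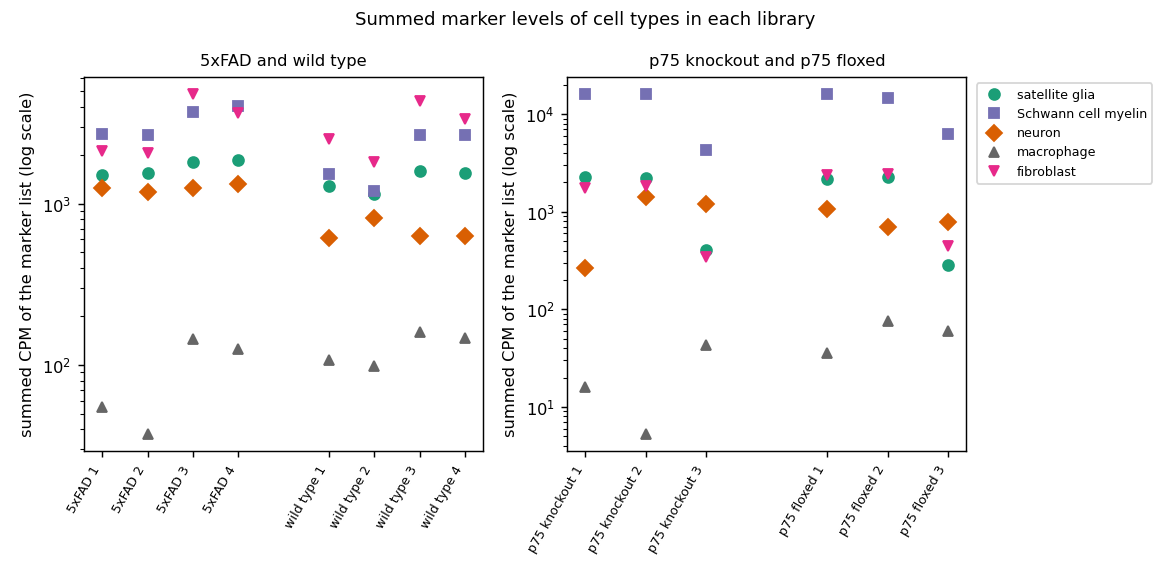
Summed CPM of the markers of 5 cell types in every library (log axis), for 5xFAD and wild type (left) and p75 knockout and p75 floxed (right). Neuronal sums are higher in all 5xFAD libraries (1185 to 1318 CPM) than in wild-type libraries (613 to 810 CPM), and satellite glia, Schwann cell and fibroblast sums are lowest in replicate 3 of both p75 groups.

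In the p75 table none of the 9 genes was called by edgeR's quasi-likelihood test in p75 knockout against p75 floxed ganglia, and 0% of the 11890 genes tested were. None of the 9 had an unadjusted p under 0.05, against 0.454% of all genes higher and 0.723% lower at that level, and none was called by DESeq2 (0.0505% of all genes), by limma-voom (0% of all genes), with the block (0.00841%) or with replicates 1 and 2 alone (0.0499%). The libraries overlapped between the groups for all 9 genes, while 6.1% of all genes did not overlap. The fold changes of 6 genes were above 0 and of 3 below, with a median of 0.10 beside 0.016 over all genes. The intervals were wide, and for 6 of the 9 genes they reached past a 2-fold change in both directions.

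**Figure D4:**
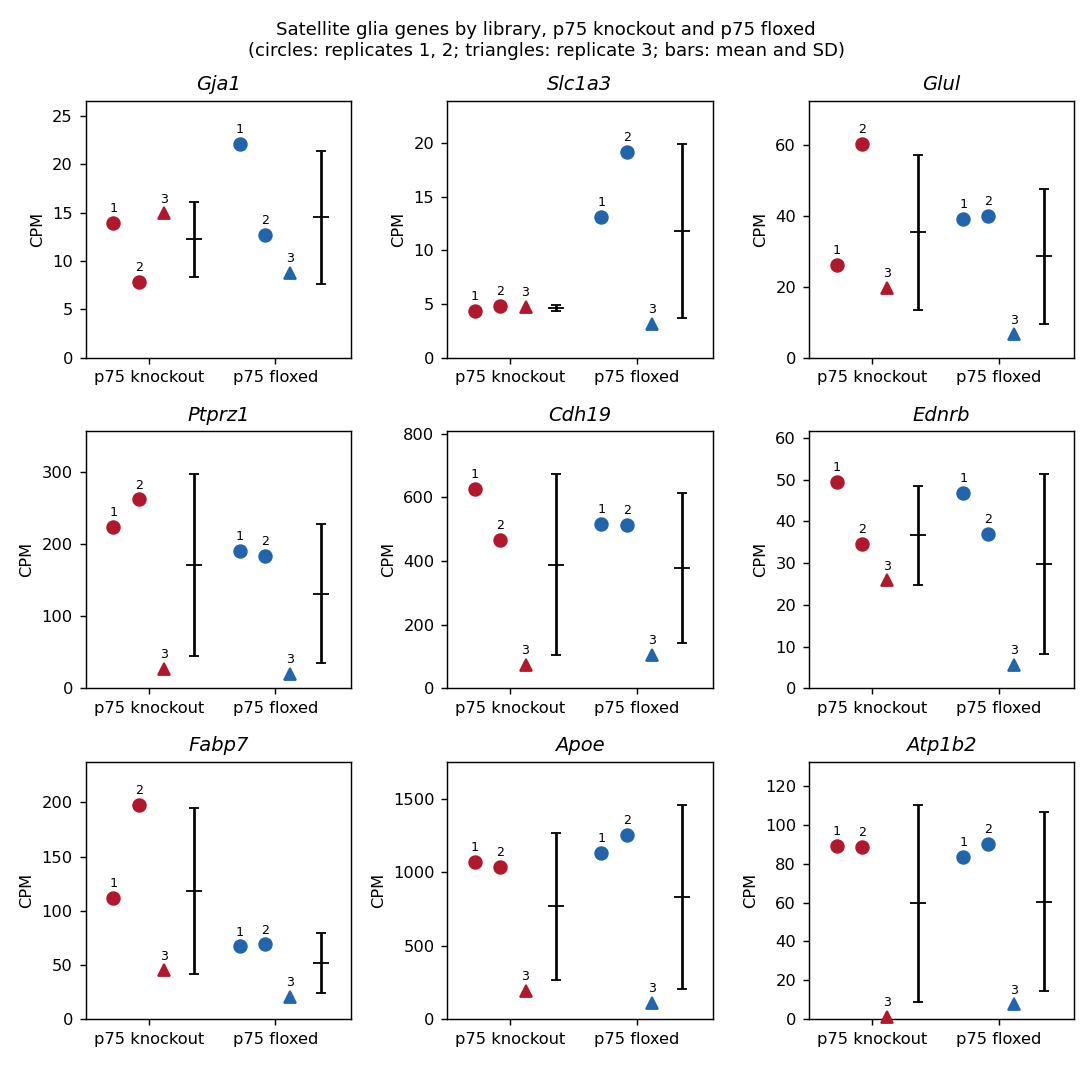
Levels of the 9 satellite glia genes in CPM (linear axes from 0) in 3 p75 knockout libraries (red, left) and 3 p75 floxed libraries (blue, right), numbered by replicate; bars give the mean and SD. Replicate 3 (triangles) is the lowest library of each group for 7 genes, among them Ptprz1, Cdh19, Apoe and Atp1b2, but not for Gja1 in the knockout.

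Gja1 had 13.96, 7.82 and 14.9 CPM in p75 knockout replicates 1 to 3, against 22.1, 12.7 and 8.76 CPM in p75 floxed replicates 1 to 3. The knockout was lower in replicates 1 and 2 and higher in replicate 3. Its log2 fold change was -0.17 (SE 0.50, 95% interval -1.32 to 0.97), and its edgeR adjusted p, like that of all 9 genes, was 0.9999. An exact two-sided permutation test of 3 against 3 libraries gave p = 0.8, where the smallest possible is 0.1. With replicates 1 and 2 alone the log2 fold change was -0.61 (edgeR adjusted p = 0.94).

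Fabp7 had the largest fold change above 0 of the 9. It had 111, 198 and 44.8 CPM in p75 knockout replicates 1 to 3, against 67.0, 68.8 and 19.99 CPM in p75 floxed replicates 1 to 3. The knockout library was higher at each number, but knockout replicate 3 lay below floxed replicates 1 and 2, so the groups overlapped. The log2 fold change was 1.26 (SE 0.62, 95% interval -0.18 to 2.70) without the block and 1.20 (SE 0.26, 95% interval 0.62 to 1.78) with it. With the block the unadjusted p of edgeR was 0.00112 and the adjusted p was 1. Of 8 tested genes of its family 7 had fold changes above 0 and none was called (0 at an unadjusted p under 0.05, 0 by DESeq2 or limma-voom), and Fabp5, the most abundant, had a log2 fold change of 0.06 (SE 0.56).

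Slc1a3 had the largest fold change below 0. It had 4.37, 4.86 and 4.696 CPM in p75 knockout replicates 1 to 3, against 13.1, 19.2 and 3.14 CPM in p75 floxed replicates 1 to 3. The knockout libraries were nearly equal, and floxed replicate 3 lay below them while the other floxed libraries lay above. The log2 fold change was -1.25 (SE 0.68, 95% interval -2.81 to 0.30) without the block and -0.98 (SE 0.67) with it. Glul had 26.2, 60.5 and 19.6 CPM in p75 knockout libraries and 39.2, 40.03 and 6.61 CPM in p75 floxed libraries, with a log2 fold change of 0.40 (SE 0.69). Within the clearance list of 13 tested genes, 7 had fold changes above 0 and none was called (0 at an unadjusted p under 0.05, 0 by DESeq2 or limma-voom).

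For the other 5 genes replicate 3 was the lowest library of each group. Ptprz1 had 224, 262 and 27.0 CPM in p75 knockout replicates 1 to 3, against 190, 184 and 20.2 CPM in p75 floxed replicates 1 to 3. Cdh19 had 626, 466 and 72.5 CPM in p75 knockout libraries, against 516, 513 and 105 CPM in p75 floxed libraries. Both genes were several times lower in replicate 3 of each group than in the other libraries, with log2 fold changes between genotypes of 0.46 (SE 0.92) for Ptprz1 and 0.10 (SE 0.80) for Cdh19.

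Apoe had 1072, 1038 and 191 CPM in p75 knockout libraries, against 1131, 1254 and 110 CPM in p75 floxed libraries, with a log2 fold change of -0.04 (SE 0.88). Atp1b2 had 89.2, 88.8 and 0.839 CPM in p75 knockout libraries, against 83.7, 90.4 and 7.43 CPM in p75 floxed libraries, where the replicate 3 values rest on 5 counts in the knockout and 45 in the floxed library. Its log2 fold change was 0.05 (SE 1.27) without the block and -0.51 (SE 0.49) with it. Ednrb had 49.4, 34.7 and 25.8 CPM in p75 knockout libraries, against 46.8, 36.9 and 5.62 CPM in p75 floxed libraries, with a log2 fold change of 0.38 (SE 0.66).

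With the genotype in the model, replicate 3 lay below replicates 1 and 2 by a log2 difference of -4.45 for Atp1b2, -3.10 for Ptprz1, -2.84 for Apoe, -2.50 for Cdh19, -1.70 for Glul, -1.69 for Fabp7 and -1.53 for Ednrb. The difference was -0.97 for Slc1a3 and -0.13 for Gja1, beside a median of -0.04 over all genes. For Gja1 this averages opposite moves, since replicate 3 was the highest of the knockout libraries and the lowest of the floxed libraries. Kcnj10, the potassium channel, had 51.0, 49.2 and 2.18 CPM in p75 knockout replicates 1 to 3 and 61.5, 52.2 and 0 CPM in p75 floxed replicates 1 to 3. Summed markers of myelinating Schwann cells were 16089, 16020 and 4325 CPM in p75 knockout replicates 1 to 3, against 16009, 14629 and 6316 CPM in p75 floxed replicates 1 to 3, with Drp2 and Ncmap at 0 in knockout replicate 3 and Drp2 and Fa2h at 0 in floxed replicate 3. Fibroblast markers summed to 1757, 1852 and 346 CPM in p75 knockout and 2368, 2427 and 448 CPM in p75 floxed libraries, with Lum at 0 in floxed replicate 3. Neuronal markers did not split in this way, with 264, 1411 and 1208 CPM in p75 knockout and 1075, 696 and 779 CPM in p75 floxed libraries. The part of these other cell types in the members' values was not tested.

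The gene lists around the members held no called gene in the p75 comparison with any of the 3 tools. Over the 9 lists, at most 1 gene a list had an unadjusted p under 0.05, in the lists of Ptprz1 ligands and of cadherins. The gene most abundant in the gap junction list was Gjc3, with 98.1, 84.8 and 125 CPM in p75 knockout libraries against 157, 158 and 202 CPM in p75 floxed libraries. All knockout libraries lay below all floxed libraries, and the log2 fold change was -0.70 (SE 0.32, edgeR adjusted p = 0.9999). In the other lists the most abundant genes had log2 fold changes that were each smaller than the SE. These were 0.02 for Glud1 (glutamate dehydrogenase), -0.05 for Fxyd1 (a pump regulator), -0.02 for Scd2 and 0.07 for Ece1. The rest were 0.26 for Ptn, -0.09 for Ctnna1 (an alpha-catenin) and 0.04 for Sparc (a matrix protein).

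Across the 8 libraries of the 5xFAD table, the genes with levels most like those of Gja1 were Taf2 (Pearson r 0.995, Spearman rho 1), Pear1 (r 0.985, rho 0.976) and Adamts9 (r 0.983, rho 0.952), the highest among 11723 genes averaging 5 CPM or more. Across the 6 libraries of the p75 table they were Tmem265 (r 0.986, rho 0.943), Arid1a (r 0.976, rho 0.83) and Cpeb3 (r 0.974, rho 0.943), of 10230 genes. These are the extremes of long searches over few libraries that share genotypes and replicate pairs, and no p is given. In the p75 table the r with Gja1 was -0.16 for Taf2, -0.08 for Pear1 and 0.54 for Adamts9, and in the 5xFAD table it was -0.33 for Arid1a and 0.01 for Cpeb3, all below their values in the table that chose them. Tmem265 was listed at 0 in all libraries of the 5xFAD table.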

How the data were processed

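RNA sequencing of mouse dorsal root ganglia gave 14 libraries in 2 tables. The labels' protocol names Trizol and an RNeasy kit for extraction of total RNA. The authors deposited raw counts in both tables, 1 whole number a gene and library, without normalization; GRCm39 was the build per the submitters' processing notes, and no aligner or counter is named in the labels. Knockout columns of the p75 table are headed P75-Adv, which no label explains; their numbers, and the lack of other samples, tied them to the knockout.

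Each table was fitted apart, since they were counted apart, in R 4.3.3 with edgeR 4.0.16 (filterByExpr by group, TMM, robust glmQLFit, glmQLFTest, no covariates, Benjamini-Hochberg adjustment over all genes tested, threshold 0.05). With common dispersions of 0.023 (5xFAD table) and 0.3 (p75 table), fold changes are less precise in the p75 table. SE was taken as |log2 fold change| over the root of F. CPM use raw library totals. Exact permutation tests of Gja1 used scipy 1.17.1. Levels per kilobase used the joined exons of all transcripts of a gene in GENCODE vM21, an older build than that of the counts. Upstream sequences came from RefSeq on GRCm38.p6. The code was tested on simulated counts. No 2 libraries of a group were copies, since 25.4% or more of the genes differed beyond counting noise in each pair.

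The members and lists were chosen with earlier results of these data known. Genes were named by rule: all members; in each pathway list up to 3 other genes that passed, or else the most abundant; the 3 genes per table most like Gja1. Others were named where the rule for the other table, a marker list or the replicate block pointed to them, after their values were seen. These were Gjc3, Gjb1, Panx1, Ptn, Cntn1, Fabp5, Pmp2, Crabp1, Fxyd1, Kcnj10, Scd2, Sox10, S100a4, Ecel1, Mme, Col3a1, Drp2, Ncmap, Fa2h and Lum. Gja5, Gjb2 and Gjc1 of the gap junction list were also named outside the rule, after their values were seen. The results of some genes that the rule names are not reported here.

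Replicate numbers recur in both groups of a table. For same-numbered libraries, the correlation of their deviations from the group mean was 0.158, 0.393, 0.493 and 0.126 for 5xFAD with wild type and 0.363, 0.323 and 0.603 for p75 knockout with p75 floxed. All exceed 0.1, so numbers were treated as pairs, and blocked values stand beside each result whose call they change. Some unequal numbers correlated more than the equal ones. The values were 0.427 for 5xFAD replicate 1 with wild-type replicate 2 and 0.464 for 5xFAD replicate 4 with wild-type replicate 3. They were 0.468 for p75 knockout replicate 1 with floxed replicate 2 and 0.384 for knockout replicate 2 with floxed replicate 1. So these correlations do not show that equal numbers are true pairs. The pairing was read from the data, not the labels, and largely reflects the split of replicates 1 and 2 from later ones. Alternatives were DESeq2 1.42.0 and its size factors, raw library totals, limma-voom (limma 3.58.1), 2 other filters, the block, a batch term, fits within replicates 1 and 2 or 3 and 4 and leaving out each library.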

Additional observations from a re-analysis of the deposited data

Results flagged for a closer look

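Ptprz1 in 5xFAD replicate 4, at 44.36 CPM, lay far from the other 3 libraries of its group, which had 35.96, 34.4 and 36.02 CPM. It was the only one of 18 groups of 4 libraries examined that met the 95% limit of Dixon's test, and chance alone flags about 5% of groups. Without this library the log2 fold change of Ptprz1 in 5xFAD over wild type was 0.62 (edgeR adjusted p = 0.249), beside 0.71 (edgeR adjusted p = 0.104) with it.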

How the results depend on the processing

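In the 5xFAD comparison the count of members called, 1, was 2 with DESeq2, 4 with the replicate block, 4 with a batch term for replicates 1 and 2 against 3 and 4, 6 within replicates 1 and 2, 3 within replicates 3 and 4, and 0 to 1 without single libraries. Over all genes the count of 570 was 1028 with DESeq2, 1622 with the block, 1866 with the batch term, 2053 within replicates 1 and 2 and 237 to 516 without single libraries (237 without wild-type replicate 1, and 323, 376 and 283 without 5xFAD replicates 1, 2 and 4). The cause of these differences was not tested, other than that fits without a library have fewer samples. The permutation difference of Gja1 was -0.69 to -0.52 without single libraries, where p cannot go below 0.0571 and was 0.0571 each time. The block changed no member's call beyond those of Ptprz1, Atp1b2 and Apoe. Fabp7 turned to -0.17 within replicates 3 and 4. In the p75 comparison the count over all genes, 0, was 6 with DESeq2, 1 with the block, 1 with a batch term for replicate 3 and 6 within replicates 1 and 2, and the members' count stayed 0 in every fit run. Log2 fold changes turned sign for Cdh19 (limma-voom -0.071, block -0.072, batch term -0.063), Atp1b2 (raw totals -0.023, limma-voom -1.06, block -0.51, batch term -0.48) and Apoe (limma-voom 0.21, block 0.20, batch term 0.20). Without single libraries they ranged over -0.41 to 0.23 for Gja1, -0.23 to 0.71 for Glul, -0.10 to 0.85 for Ednrb, -0.044 to 0.96 for Ptprz1, -0.39 to 0.59 for Cdh19, -0.47 to 0.63 for Atp1b2 and -0.55 to 0.42 for Apoe, and the permutation difference of Gja1 over -0.48 to 0.15. Fabp7 (0.66 to 1.65) and Slc1a3 (-1.69 to -0.73) kept their sign there. Depth limits Atp1b2 in p75 knockout replicate 3, with 5 counts, and Slc1a3, with 19 counts in its poorest library.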
